A study of Mus musculus with 18 samples.

Results

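The heat shock and DnaJ chaperone genes were followed through all 18 mouse oocyte libraries of the study, cultured and uncultured. Members were chosen by symbol: genes whose symbol begins with Hsp90, with Hspa, Hspb, Hspd, Hspe or Hsph and a digit, with Dnaja, Dnajb or Dnajc and a digit, or with Hsf and a digit. Of 77 symbols with these beginnings, 3 pseudogenes were dropped, which left 74 genes of the 28252 in the deposited table of transcripts scaled to a common library total and to gene length (TPM). The 74 were 3 HSP90 genes, 14 HSP70 and HSP110 genes, 2 chaperonin genes, 6 genes named as small heat shock proteins, 43 DnaJ genes (4 DNAJA, 11 DNAJB and 28 DNAJC) and 6 genes with symbols beginning with Hsf. Among these, *Hsf2bp* encodes a meiotic protein that binds HSF2 and is not itself a heat shock factor.

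The 6 groups held 3 libraries each, taken at the primordial follicle, primary follicle and metaphase II (MII) stages, each *in vivo* and *in vitro*. All groups came from C57Bl/6j x CBA/J mice without a genetic change. For the first 2 stages, the *in vitro* groups came from ovaries of 7-day-old mice cultured for 7 days in medium with 10% fetal bovine serum. That medium also held follicle-stimulating hormone, insulin, transferrin and selenite, so culture and these additions cannot be told apart. The *in vivo* groups were the ovaries of 14-day-old mice, fixed without culture. Oocytes of both stages were cut from stained paraffin sections by laser capture microdissection (LCM), and caps of the same stage were pooled. The MII *in vitro* oocytes were matured in follicles kept for 12 more days in alginate after ovary culture, with gonadotropins added to the medium, whereas the MII *in vivo* oocytes were ovulated by adult mice after hormone injection, and each MII library held 10 oocytes. LCM libraries were made with an amplification and capture kit and MII libraries by Smart-seq II, so stage and library preparation cannot be told apart between them, and no test compared MII with LCM oocytes. The labels do not say whether libraries of 1 group came from separate cultures or animals, so p-values measure the spread between these libraries, which may be technical.

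Chaperones of the HSP70 family bind unfolded stretches of proteins in cycles of ATP hydrolysis. DnaJ proteins, also called HSP40, bring clients to HSP70 and start the hydrolysis, and HSP90 takes over many clients for their last folding steps. HSP60, encoded by *Hspd1*, and its lid HSP10, encoded by *Hspe1*, fold proteins inside mitochondria, and BiP (*Hspa5*) and GRP94 (*Hsp90b1*) do so in the endoplasmic reticulum (ER). Heat and other proteotoxic stress release HSF1, which binds heat shock elements in promoters and raises the stress-inducible members, above all *Hspa1a*, *Hspa1b*, *Hspb1* and *Dnajb1*. Oocytes store large amounts of maternal transcripts, of which *Hsp90aa1* is a known example.

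Each LCM library held 15149564 to 29205503 counted reads and each MII library 7334817 to 9978830. A gene was counted as detected with more than 3 reads, a floor that covers counting error only. The LCM libraries detected 4842 to 11710 genes and the MII libraries 13238 to 15488. Of 12 oocyte markers, 11 or 12 were over the floor in every library. Their summed level was 329 to 1947 TPM (median 575) in the LCM libraries and 6707 to 15981 TPM in the MII libraries. Granulosa cell markers were over the floor at 3 to 10 of 11 in the LCM libraries, with a summed level of 22.5 to 2352 TPM, and at 3 to 7 of 11 in the MII libraries, with 30.3 to 76.5 TPM. Markers of stroma and theca summed to between 453 and 29933 TPM in the LCM libraries, the highest being primary *in vivo* replicate 2, and to between 0.158 and 4.11 TPM in the MII libraries. Oocyte markers summed to 608 TPM in primary *in vivo* replicate 2. Median sums over the LCM libraries were 559 TPM for granulosa and 1053 TPM for stroma and theca markers. The part of other cells in the LCM chaperone levels was not tested. Leukocyte markers were over the floor at 0 or 1 of 3, and of 3 endothelial markers 0 to 3 were over it in LCM and 2 in MII libraries. Of the 3 measured cumulus markers, 0 or 1 were over the floor in LCM and 0 to 2 in MII libraries. In these bulk samples, fewer cells of a type and less RNA per cell cannot be told apart.

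Together the 74 genes took 0.876% to 1.64% of the reads per LCM library and 0.697% to 1.33% per MII library. Between 25 and 56 of them were detected per LCM library and between 55 and 62 per MII library. A core of 17 genes was over the floor in all 18 libraries: *Hsp90aa1*, *Hsp90ab1*, *Hsp90b1*, *Hspa4*, *Hspa5*, *Hspa8*, *Hspa9*, *Hsph1*, *Hspd1*, *Dnaja1*, *Dnaja2*, *Dnajb6*, *Dnajc7*, *Dnajc10*, *Dnajc11*, *Dnajc13* and *Dnajc21*. These include the constitutive HSP70s of the cytosol, the ER and the mitochondria. Of their DnaJ partners, *Dnajb1* was over the floor in 9, *Dnajb11* in 10 and the mitochondrial *Dnaja3* in 9 of the 12 LCM libraries. By contrast, *Dnajb3*, *Dnajc22* and *Hsf3* were over the floor in none of the 18. *Hsf5*, *Dnajc5b* and *Hspb6* were over the floor in all 6 MII libraries and in at most 1 LCM library.

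**Figure D1:**
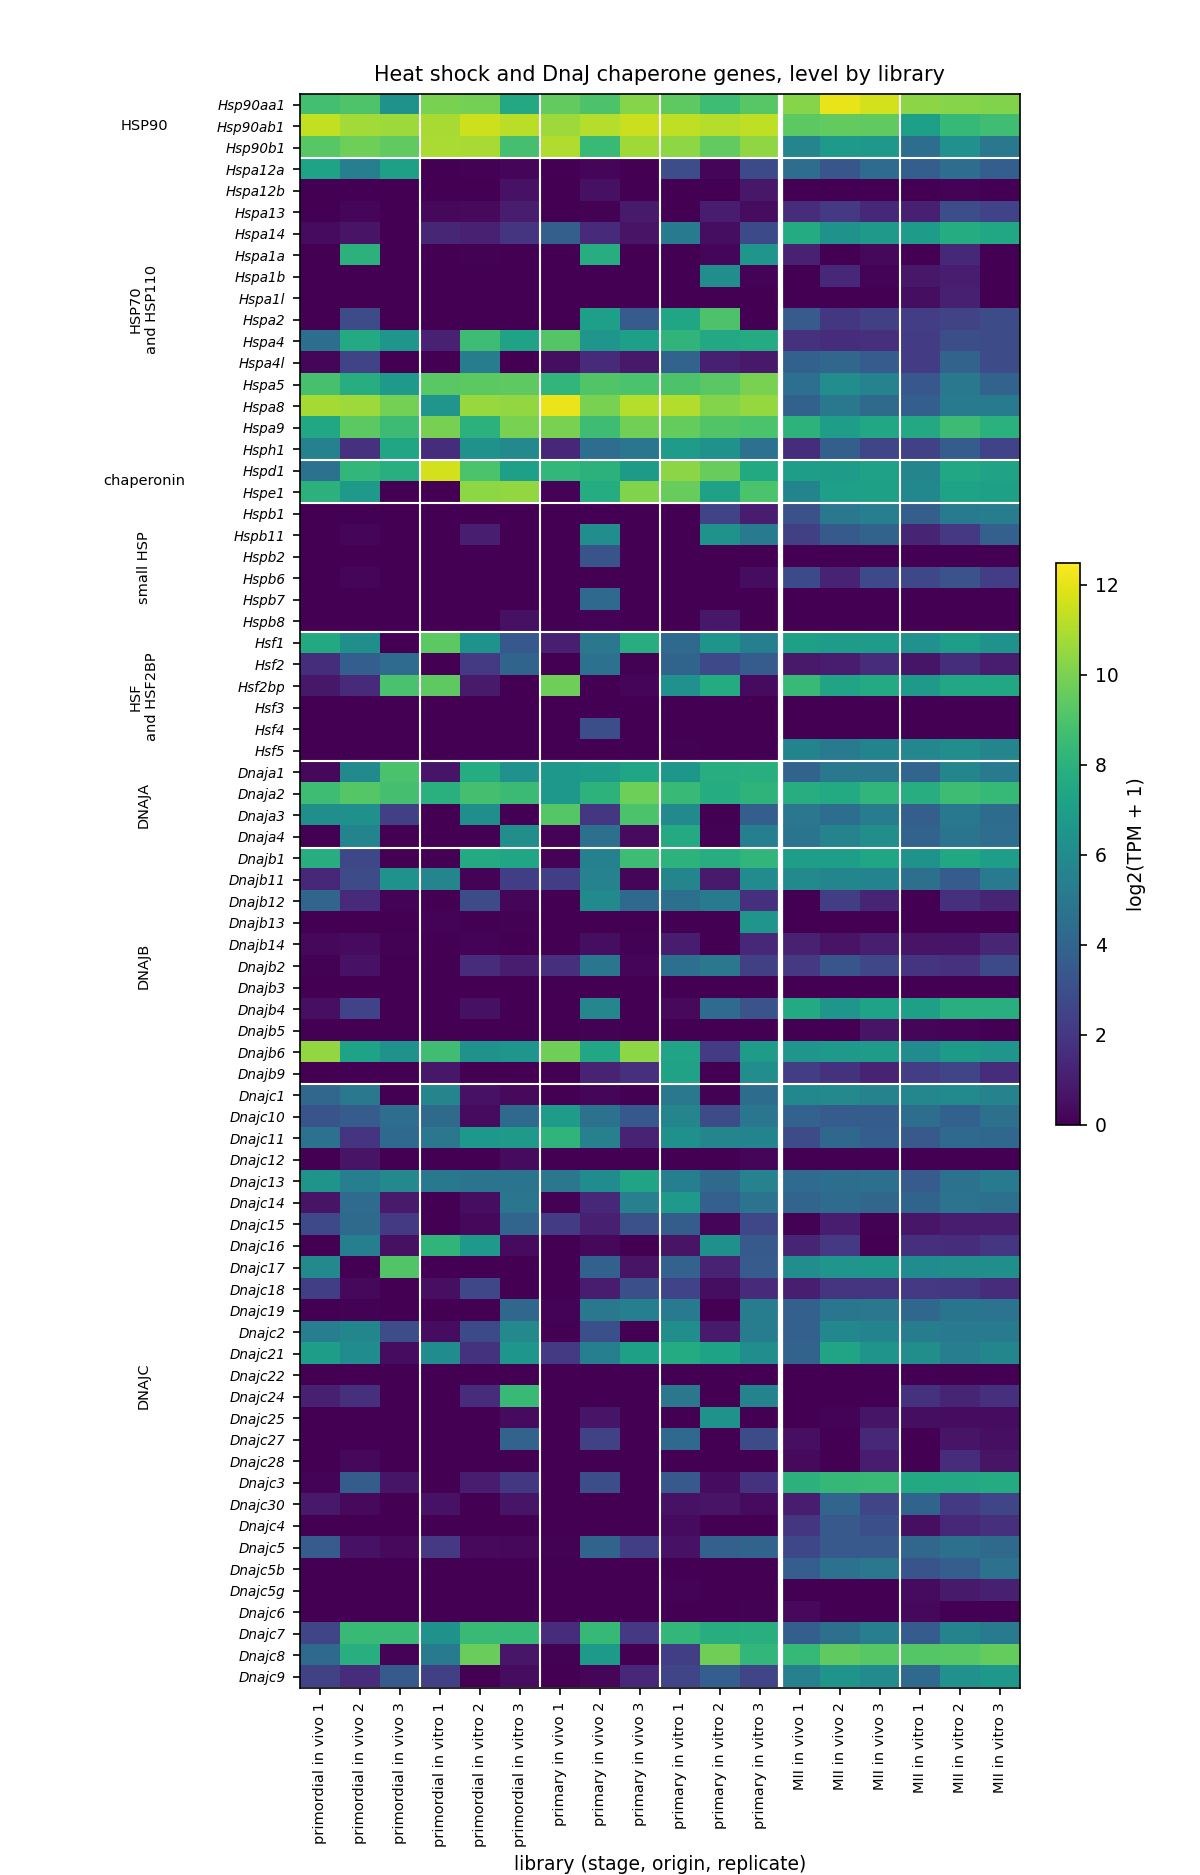
Level of each of the 74 genes (rows, grouped by family) in each of the 18 libraries (columns, 3 per group), as log2(TPM + 1) on the colour scale. HSP90 genes and *Hspa8*, *Hspa5* and *Hspa9* are bright throughout the LCM libraries, many DNAJC genes are bright in some LCM libraries and dark in others of the same group, and the MII libraries resemble each other.

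The LCM libraries of a group differed strongly from each other in which chaperones they held. Among the genes with at least 100 reads in some library of a group, the share at or under the floor in another library of the same group was 15 of 42 in primordial *in vivo*, 16 of 39 in primordial *in vitro*, 22 of 44 in primary *in vivo* and 13 of 53 in primary *in vitro* oocytes. Over all genes these shares were 45.0%, 51.4%, 60.1% and 29.0%. In both MII groups the count was 0 of 42 chaperone genes, beside 0.864% of all genes *in vivo* and 0.432% *in vitro*. The LCM values below are therefore given library by library, and a median of 3 often hides 1 high library.

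By mean TPM, cytosolic HSP90 was the most abundant of these chaperones, with *Hsp90ab1* first over the LCM libraries and *Hsp90aa1* first over the MII libraries. In 2 LCM libraries other members exceeded *Hsp90ab1*, namely *Hspd1* (3175 TPM) and *Hsp90b1* (1948 TPM) in primordial *in vitro* replicate 1 and *Hspa8* (4505 TPM) and *Hsp90b1* (2087 TPM) in primary *in vivo* replicate 1. By reads, which are not scaled to length, *Hspa8* was first over the LCM libraries. *Hsp90ab1*, the constitutive HSP90 beta, ranged from 1639 to 2990 TPM with a median of 2287 over the 12 LCM libraries. *Hsp90aa1*, the HSP90 alpha gene, ranged from 84.4 to 1184 TPM with a median of 573 in the same libraries. Per length, *Hsp90ab1* exceeded *Hsp90aa1* in 12 of 12 LCM libraries, by 1.88 to 19.4 times. In the MII libraries the order was the opposite in 6 of 6, *Hsp90aa1* exceeding *Hsp90ab1* by 1.87 to 9.63 times. *Hsp90aa1* made up 4.90% to 34.7% of the summed TPM of the pair in LCM libraries and 65.1% to 90.6% in MII libraries. Of the 100-base windows of the *Hsp90aa1* transcript, 0 recur in that of *Hsp90ab1* in the GENCODE annotation. Because both genes were measured in the same library, the ratio does not depend on library size, but between LCM and MII libraries the preparation differed as well.

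**Figure D2:**
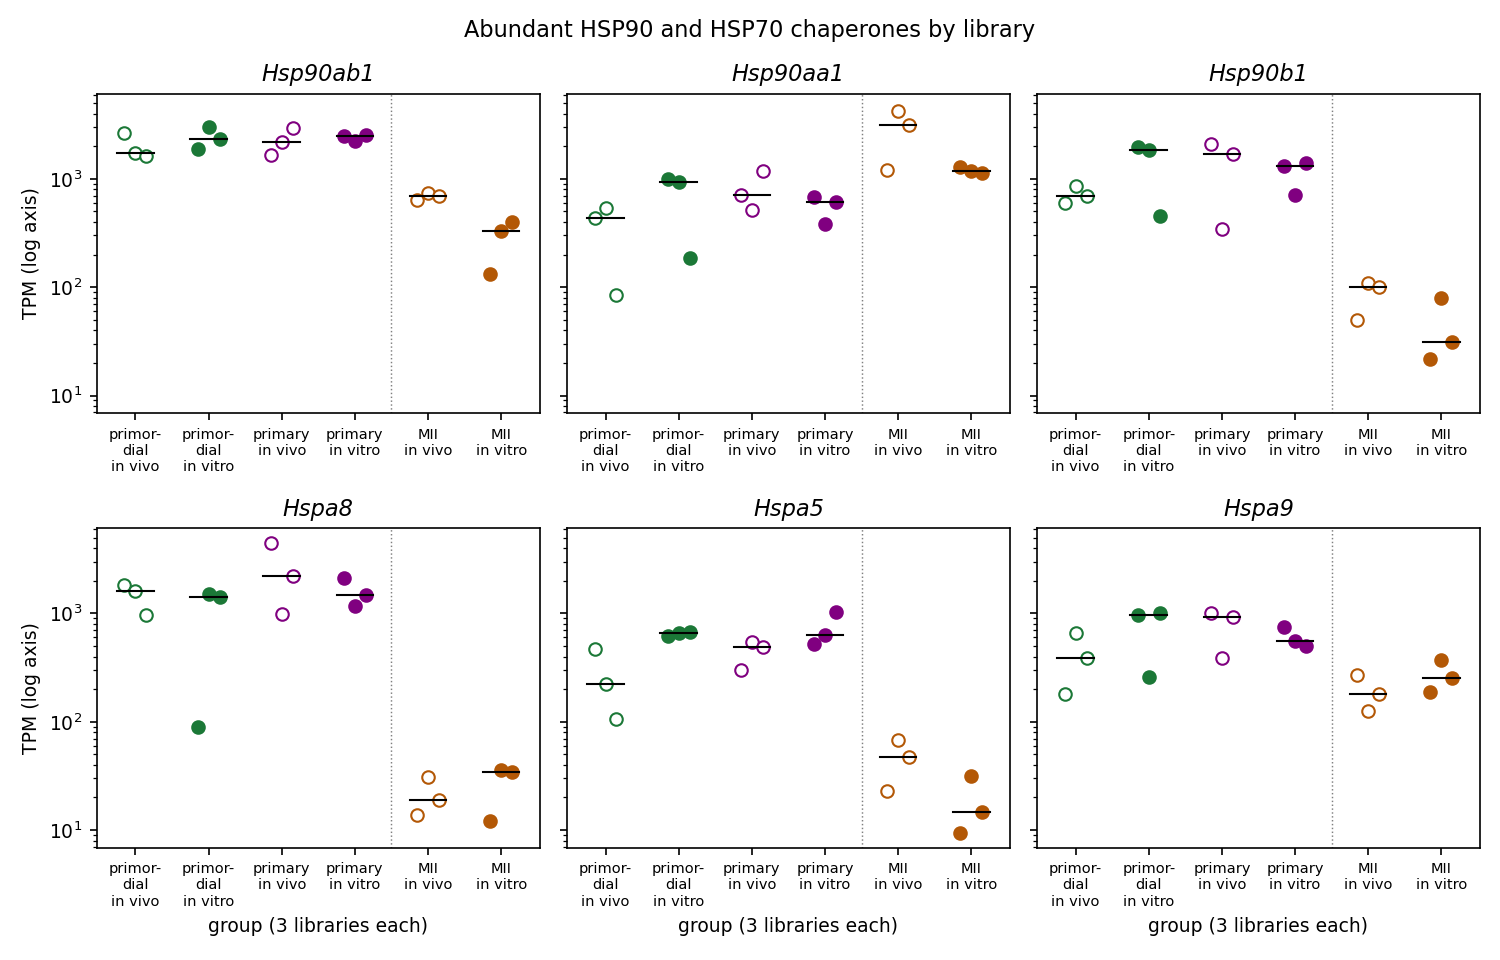
TPM (log axis) of 6 abundant HSP90 and HSP70 genes in each library; open circles are *in vivo* and filled circles *in vitro*, lines are medians of 3 and the dotted line separates LCM from MII libraries. *Hsp90aa1* is the only one of the 6 whose median is higher in MII (1243 TPM) than in LCM libraries (573 TPM), and *Hspa8* and *Hspa5* sit far lower in MII.

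Of the HSP70s, *Hspa8*, the constitutive HSC70, was second among the 74 genes in mean LCM level, at 1486 TPM in the median library. It held 1813, 1611 and 961 TPM in the primordial *in vivo* libraries and 89.9, 1502 and 1429 TPM in the primordial *in vitro* libraries. Its primary *in vivo* values were 4505, 997 and 2204 TPM and its primary *in vitro* values 2143, 1159 and 1469 TPM, so the groups overlapped at both stages. In MII libraries *Hspa8* held 12.1 to 35.8 TPM. *Hspa9*, the mitochondrial HSP70 mortalin, held 181 to 1011 TPM in LCM and 126 to 374 TPM in MII libraries. *Hspa4*, an HSP110-type exchange factor, ranged from 1.19 to 571 TPM in LCM and from 2.12 to 6.99 TPM in MII libraries. *Hspa14*, a ribosome-associated HSP70, was high in MII libraries instead, at 80.8 to 212 TPM.

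The stress-inducible HSP70 genes were near 0 in most libraries, cultured or not. *Hspa1a* had 5464 reads in primordial *in vivo* replicate 2, 4730 in primary *in vivo* replicate 2 and 2150 in primary *in vitro* replicate 3, and 0 to 3 reads in the other 9 LCM libraries. None of the 3 primordial *in vitro* libraries held more than 1 read of it. *Hspa1b* had 1444 reads in primary *in vitro* replicate 2 and at most 2 in the other 11 LCM libraries. Both stayed at 0 to 18 reads in the MII libraries. These 2 genes are near copies: 47.1% of the 100-base windows of the *Hspa1a* transcript occur unchanged in *Hspa1b*, and how reads mapping to both were counted is not given in the sources used here, so the split between them is uncertain. The 3 libraries with *Hspa1a* detected 10240, 10283 and 11710 genes, and their granulosa marker sums were 627, 567 and 2352 TPM. The stroma and theca sum was 29933 TPM in the second of them, primary *in vivo* replicate 2. Primary *in vitro* replicate 1, with 11094 genes and a granulosa sum of 1135 TPM, and primordial *in vitro* replicate 3, with 1012 TPM, held 0 reads of *Hspa1a*. The part of these measures in the counts was not tested.

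*Hspb1*, the inducible HSP27, was at 0 reads in 10 of 12 LCM libraries, with 38 and 8 reads in primary *in vitro* replicates 2 and 3. In MII oocytes it had 28, 94 and 137 reads *in vivo* and 56, 132 and 129 *in vitro*, so the groups overlapped. *Dnajb1*, the inducible DnaJ partner of HSP70, was over the floor in all 6 MII libraries at 80.7 to 181 TPM and in all 3 primary *in vitro* libraries at 222 to 297 TPM. In the other LCM groups it came and went, with 4774, 123 and 0 reads in primordial *in vivo*, 0, 5410 and 3511 in primordial *in vitro* and 2, 1040 and 6375 in primary *in vivo* libraries.

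The promoters of the inducible genes *Hspa1a* and *Hspb1* are shown because HSF1 acts there. The windows are the 250 bases before the RefSeq start on GRCm38.p6, and 58 of the 74 genes were matched. Capitals mark every match to the paired element GAANNTTC, searched on both strands.
Hspa1a, chr17:34972157-34972406, minus strand: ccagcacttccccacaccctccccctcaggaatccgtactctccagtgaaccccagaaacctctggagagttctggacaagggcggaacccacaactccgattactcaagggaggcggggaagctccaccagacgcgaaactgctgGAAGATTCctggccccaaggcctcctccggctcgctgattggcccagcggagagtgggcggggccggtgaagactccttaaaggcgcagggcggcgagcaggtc
Hspb1, chr5:135887669-135887918, plus strand: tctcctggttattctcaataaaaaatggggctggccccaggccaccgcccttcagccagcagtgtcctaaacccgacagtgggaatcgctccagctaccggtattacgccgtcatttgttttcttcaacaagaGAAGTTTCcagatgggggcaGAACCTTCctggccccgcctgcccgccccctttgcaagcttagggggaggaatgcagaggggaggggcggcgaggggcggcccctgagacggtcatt
The match in *Hspa1a* ends 96 bases before the start, and those in *Hspb1* end 109 and 89 bases before it. This pattern occurs in 10 of the 58 matched genes, among them *Dnaja1*, *Dnaja4*, *Hspd1* and *Hspe1*, beside 7.73% of all 27025 genes with a promoter window of this length and 6.69% of all 32851 windows. The other arrangement TTCNNGAA occurs in 7 of the 58, beside 8.11% of all genes and 7.17% of all windows. *Dnajb1* was listed with neither arrangement, and *Hsp90aa1* and *Hspa8* had no matched window. A match is a description of the letters and not a binding site.

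*Hspd1* and *Hspe1* are neighbours on chromosome 1, with *Hspd1* at 55077835-55088243 on the minus strand and *Hspe1* at 55088132-55091307 on the plus strand (GRCm38), so their 5′ ends overlap. Their shared promoter region is shown because GAA and TTC alternate there in a longer run. The pattern searched was GAANNTTC followed, after any pair of bases, by GAA, on either strand, which contains both shorter ones, and capitals mark the stretch covered by its overlapping matches.
Hspe1, chr1:55088053-55088082, plus strand: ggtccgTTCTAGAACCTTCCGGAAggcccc
The marked stretch ends 71 bases before the *Hspe1* start. The pattern searched occurs in 0.514% of all genes, in 0.466% of all promoter windows and in 3 of the 58 matched chaperone genes, *Hspd1*, *Hspe1* and *Dnajb6*.

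The pair was read very unequally in single LCM libraries. *Hspd1* had 39580 reads and *Hspe1* 0 in primordial *in vitro* replicate 1, and the counts were 4571 and 0 in primordial *in vivo* replicate 3 and 5615 and 1 in primary *in vivo* replicate 1. In the other direction, primordial *in vivo* replicate 1 held 440 *Hspd1* and 2618 *Hspe1* reads. In the MII libraries the TPM ratio of *Hspd1* to *Hspe1* stayed between 0.856 and 2.63. The 3 libraries with 0 or 1 *Hspe1* read were those with the fewest detected genes, 4842, 5703 and 6438, and the part of this in the counts was not tested.

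**Figure D3:**
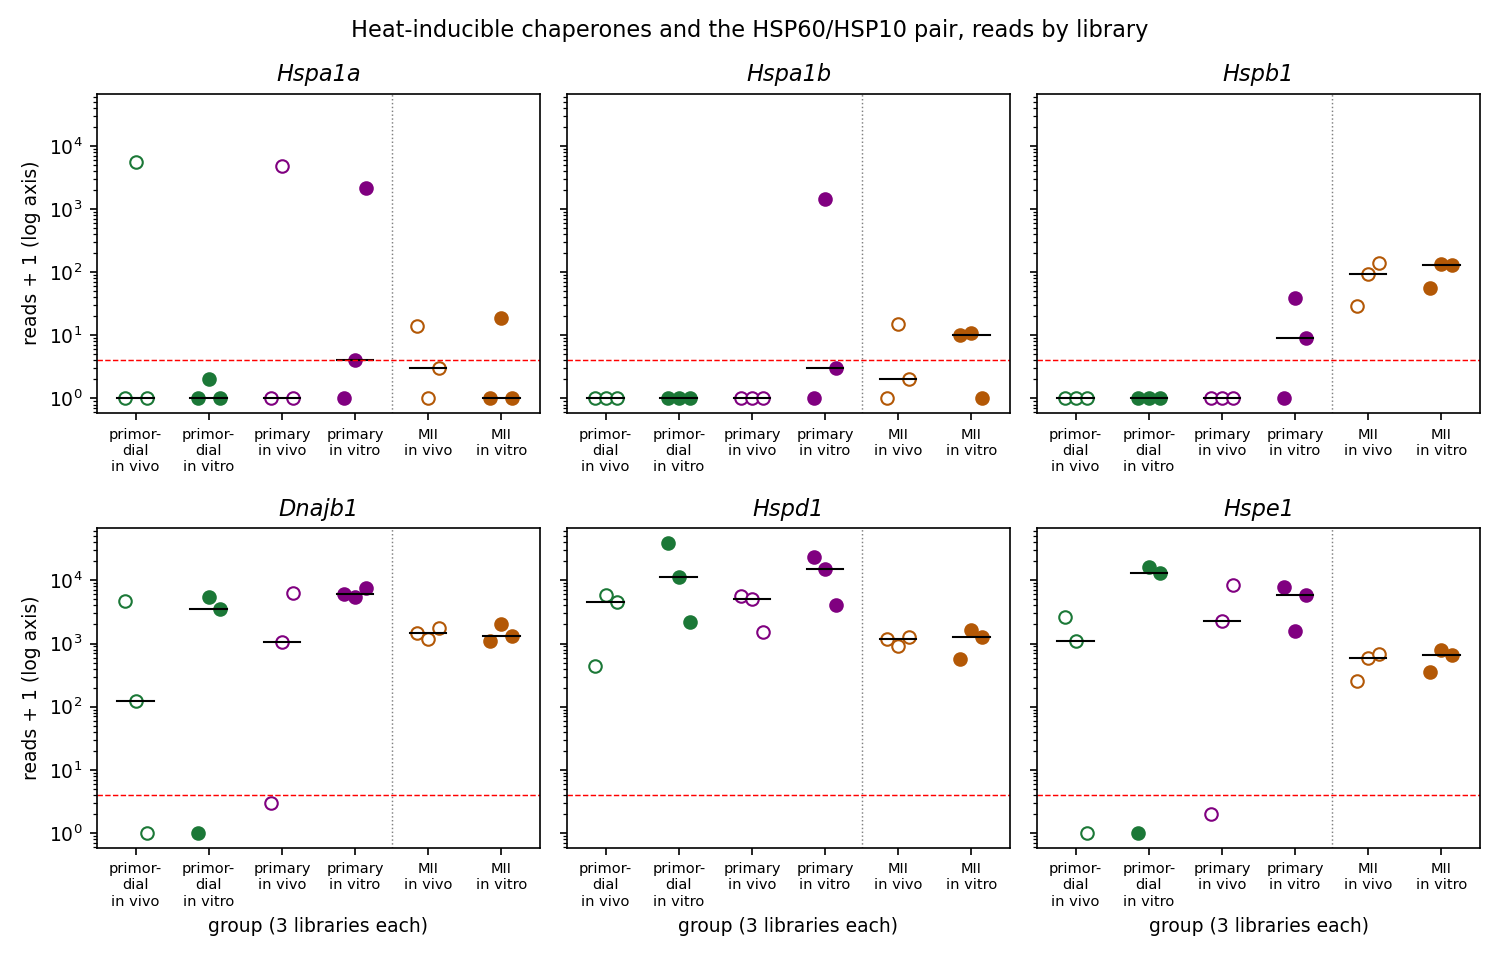
Reads plus 1 (log axis) of 4 heat-inducible genes and of the mitochondrial pair *Hspd1* and *Hspe1* in each library; open circles are *in vivo*, filled circles *in vitro*, black lines medians of 3, and the dashed red line the floor of 3 reads. *Hspa1a* has 2150 to 5464 reads in 3 LCM libraries and 0 to 18 in the other 15, and *Hspe1* is at 0 or 1 read in 3 libraries where *Hspd1* has 4571 to 39580.

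The ER chaperones *Hsp90b1* and *Hspa5* were over the floor in every library. *Hsp90b1* held 347 to 2087 TPM and *Hspa5* 106 to 1020 TPM in LCM libraries, compared with 22.0 to 109 and 9.40 to 67.9 TPM in MII libraries. *Dnajc3*, the ER DnaJ protein that also restrains the kinase PERK, had the reverse pattern with at most 11.9 TPM in LCM and 188 to 349 TPM in MII libraries. Both abundant ER chaperones are induced by unfolded proteins in the ER through a composite promoter element, so the matching stretches are shown. Capitals mark CCAAT followed, after any 9 bases, by CCACG, on either strand.
Hspa5, chr2:34772020-34772049, plus strand: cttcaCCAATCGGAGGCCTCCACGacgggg
Hsp90b1 distal, chr10:86705632-86705661, minus strand: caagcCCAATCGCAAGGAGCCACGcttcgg
Hsp90b1 proximal, chr10:86705527-86705556, minus strand: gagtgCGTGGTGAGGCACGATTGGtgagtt
The match in *Hspa5* ends 46 bases before the start, and those in *Hsp90b1* end 193 and 88 bases before it. Of the 58 matched genes 3 held this pattern, the third being *Dnajc3*, beside 0.13% of all genes and 0.113% of all promoter windows.

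The DnaJ genes included both ends of the detection range. *Dnaja2*, a cytosolic partner of HSC70, held 101 to 841 TPM in LCM and 199 to 394 TPM in MII libraries. *Dnajb6*, which keeps aggregation-prone proteins soluble, ranged from 3.45 to 1404 TPM in LCM and from 63.4 to 114 TPM in MII libraries. *Dnajc8*, a splicing-associated member, was second among the 74 in mean MII level at 332 to 737 TPM, and ranged from 0 to 880 TPM in LCM libraries. *Dnajb4* held 94.3 to 234 TPM in MII libraries and at most 55.1 TPM in LCM libraries. *Dnajc5b*, a relative of the cysteine string protein, had 45 to 130 reads in the MII libraries and none in any LCM library.

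Among the heat shock factors, *Hsf1* was detected in 11 of 12 LCM libraries, with 52 to 21506 reads, and had 1 read in the other. It was detected in all MII libraries, with 1974 to 3462. *Hsf2* had 0 to 1771 reads in LCM and 25 to 73 in MII libraries. *Hsf5*, a germline factor, had 437 to 1001 reads in the MII libraries and at most 2 in any LCM library. *Hsf4* was over the floor in 1 library, primary *in vivo* replicate 2, with 89 reads. *Hspb7* (373 reads) and *Hspb2* (52 reads) were likewise seen in that library alone, the one in which stroma and theca markers summed to 29933 TPM. Without it, these 3 genes were at 0 in all other 17 libraries, and the part of the other cells in these counts was not tested.

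The first comparison asked whether MII oocytes matured *in vitro* differ in their chaperone transcripts from ovulated ones. The 3 HSP90 genes and the ER members *Hspa5* and *Dnajb11* had lower mean levels *in vitro*, with separate groups for *Hsp90ab1* and *Dnajb11* alone. The HSP110-type gene *Hspa4* and the synaptic-type DnaJ gene *Dnajc5* had higher levels. No difference of these passed the adjustment over all genes. A gene was called at an adjusted p under 0.05 and a fold of at least 2. By edgeR's quasi-likelihood test 0 of the 64 chaperone genes tested were called, against 0.35% of all 17144 genes (60 genes, 49 higher and 11 lower *in vitro*). At an unadjusted p under 0.05 there were 9 of 64, 3 higher and 6 lower, beside 10.2% of all genes (5.99% higher and 4.18% lower). DESeq2 called 2 of them, *Hsp90ab1* and *Dnajc5*, beside 2.05% of all genes.

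*Hsp90ab1* (chromosome 17, 45567775-45573271, minus strand, mm10) held 643, 733 and 691 TPM in the *in vivo* and 133, 331 and 402 TPM in the *in vitro* MII libraries. All *in vitro* values lay under all *in vivo* values. The edgeR log2 fold change was -1.27 with an approximate standard error (SE, derived from the test statistic) of 0.36 and an adjusted p of 0.230. DESeq2 gave an adjusted p of 0.0230, and over all alternatives it ranged from 0.0230 to 0.568. *Hsp90aa1* (chromosome 12, 110690605-110702728, minus strand) held 1201, 4273 and 3151 TPM *in vivo* and 1285, 1189 and 1124 TPM *in vitro*. Here the groups overlapped through *in vivo* replicate 1, and the log2 fold change was -1.13 (SE 0.42, edgeR adjusted p = 0.413). Without that replicate it was -1.46 and was called by edgeR (adjusted p = 0.0260, range over all alternatives 0.0260 to 0.728). The same omission raised the genes called from 60 to 378.

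*Hsp90b1*, the ER HSP90, had 717, 1309 and 1372 reads *in vivo* and 374, 1118 and 408 *in vitro*, and its log2 fold change was -0.98 (SE 0.41, edgeR adjusted p = 0.459). *Hspa5* (BiP) had 342, 856 and 677 reads *in vivo* and 168, 468 and 202 *in vitro*, a log2 fold change of -1.30 (SE 0.45, edgeR adjusted p = 0.371). The groups of *Hsp90b1* and of *Hspa5* overlapped. *Dnajb11*, the ER DnaJ partner of BiP, had 698, 502 and 538 reads *in vivo* and 317, 131 and 358 *in vitro*. The groups of *Dnajb11* did not overlap, and its log2 fold change was -1.16 (SE 0.45, edgeR adjusted p = 0.425). *Dnajc3* did not overlap either, at 257, 322 and 349 TPM *in vivo* and 190, 188 and 209 TPM *in vitro*, and its log2 fold change was -0.58 (SE 0.31, edgeR adjusted p = 0.510). Of the 8 listed ER chaperones, 4 had negative and 4 positive fold changes with a median of -0.25 (log2), beside a median of 0.04 over all genes tested, and their summed level was 466 to 625 TPM *in vivo* and 325 to 398 TPM *in vitro*. The other 4, *Dnajb9*, *Dnajc1*, *Dnajc10* and *Hspa13*, were those with positive values. *Dnaja4*, a cytosolic DnaJ gene, had 347, 501 and 873 reads *in vivo* and 228, 342 and 257 *in vitro*, and its log2 fold change was -1.13 (SE 0.39, edgeR adjusted p = 0.371). These groups did not overlap, the highest *in vitro* library lying just under the lowest *in vivo* one.

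Higher *in vitro* at an unadjusted p under 0.05 were *Dnajc5*, *Hspa4* and *Dnajc24*. *Dnajc5*, encoding the cysteine string protein, had 135, 211 and 239 reads *in vivo* and 488, 580 and 429 *in vitro*, a log2 fold change of 1.27 (SE 0.38, edgeR adjusted p = 0.267). *Hspa4* had 48, 35 and 44 reads *in vivo* and 83, 136 and 118 *in vitro*, a log2 fold change of 1.30 (SE 0.57, edgeR adjusted p = 0.468). Neither gene's groups overlapped. *Dnajc24*, a co-chaperone gene also needed for diphthamide synthesis, had 0 reads in all 3 *in vivo* libraries and 15, 7 and 10 reads *in vitro*. That is 9.81-fold higher *in vitro* when the *in vivo* group is set to a floor of 3 reads in total, which covers counting error only. The edgeR adjusted p was 0.421. *Dnajc24* overlaps 3 genes on the opposite strand, and whether counting used strand is not given in the sources used here.

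**Figure D4:**
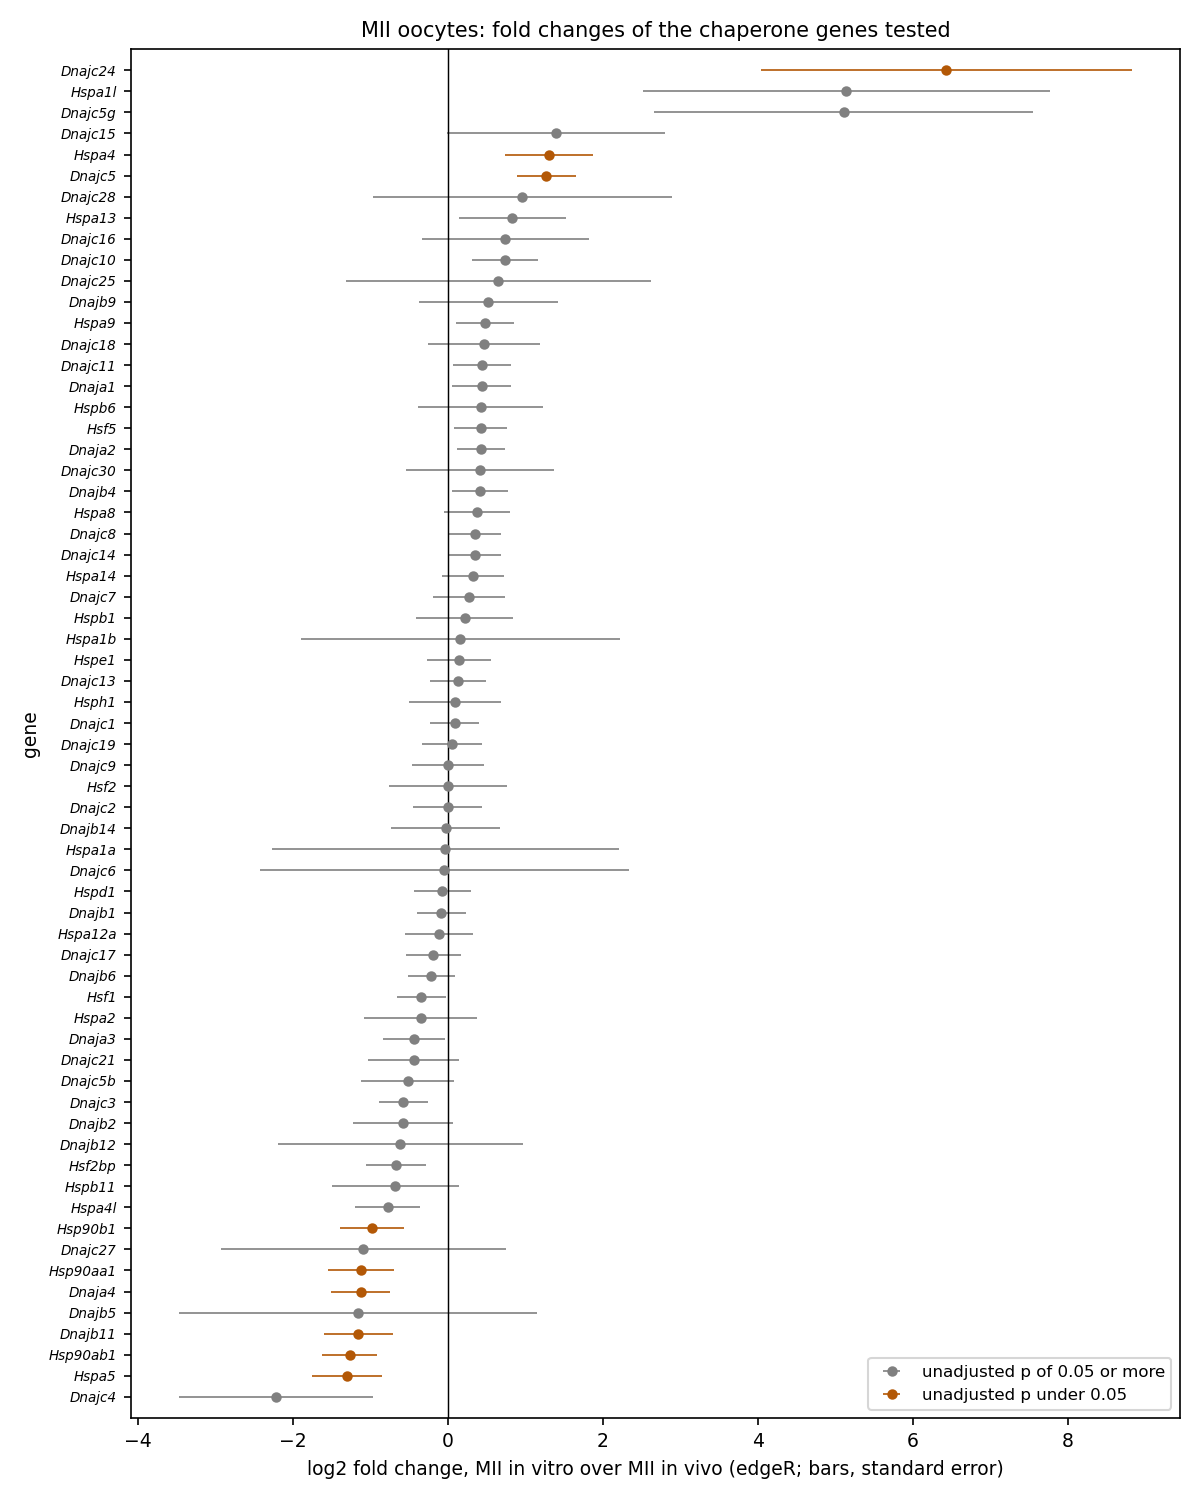
Fitted log2 fold change (MII *in vitro* over MII *in vivo*, edgeR, bars are SE) of the 64 chaperone genes tested; the 9 with an unadjusted p under 0.05 are in orange. *Hsp90aa1*, *Hsp90ab1* and *Hsp90b1* lie together on the negative side, at -1.13, -1.27 and -0.98. The large positive values of *Dnajc24*, *Dnajc5g* and *Hspa1l* each rest on an *in vivo* group at 0 reads and are not bounds.

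The list of heat-inducible genes held *Hspa1a*, *Hspa1b*, *Hspb1*, *Dnajb1*, *Hsph1*, *Hsp90aa1*, *Hspd1*, *Hspe1* and also *Hspa8*, which is mainly constitutive. In MII oocytes 5 of its 9 genes had positive and 4 negative values, with a median log2 fold change of 0.09, and 1 of them, *Hsp90aa1*, had an unadjusted p under 0.05. *Hspd1*, *Hspe1*, *Dnajb1* and *Hsph1* each differed by less than their SE. The heat-inducible list summed to 1529 to 4722 TPM *in vivo* and 1503 to 1782 TPM *in vitro*, with overlap. After normalization 13 of the 64 genes had groups that did not overlap, 6 higher and 7 lower *in vitro*, beside 9.37% and 6.81% of all genes and 16.2% in either direction. Those 13 included *Hsf1*, lower *in vitro* (3462, 2402 and 2881 against 2393, 3044 and 1974 reads), whose raw reads overlap. The summed share of reads in the 74 genes was 1.05% ± 0.315 (SD, n = 3) *in vivo* and 0.736% ± 0.0386 (SD, n = 3) *in vitro*. These shares overlapped, with *in vivo* replicate 1 at 0.708% and *in vitro* replicates 2 and 3 at 0.774% and 0.738%.

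At the primordial stage the comparison asked how 7 days of ovary culture left the oocytes of resting follicles. BiP was higher in all cultured libraries and *Hspa12a*, a distant HSP70 relative, was at 0 to 4 reads in them, while the abundant cytosolic chaperones overlapped. No chaperone gene was called by edgeR (0 of 62 tested, beside 0.0326% of all 15317 genes), and 6 of 62 had an unadjusted p under 0.05, 2 higher and 4 lower, beside 11.7% of all genes (4.51% higher and 7.23% lower). DESeq2 called 5, *Dnajc17*, *Dnajc19*, *Dnajc27*, *Hspa12a* and *Hspa2*, beside 5.3% of all genes. Replicates varied with a common coefficient of variation of 2.02 in LCM and 0.726 in MII libraries, as fitted by edgeR.

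*Hspa12a* had 5981, 1596 and 5753 reads *in vivo* and 0, 3 and 4 *in vitro*, and was the single chaperone gene with separate groups that was lower in culture, beside 4.55% of all genes, or 6.59% in either direction. Its log2 fold change was -10.88 (SE 4.17, edgeR adjusted p = 0.359, range over the alternatives 1.24e-08 in DESeq2 to 0.922). The 4 others were separate and higher in culture, *Hspa5*, *Hspa13*, *Hspa14* and *Dnajc11*, beside 2.04% of all genes. *Hspa5* held 466, 223 and 106 TPM *in vivo* and 623, 663 and 667 TPM *in vitro*. The 3 cultured libraries lay close together above all uncultured ones, and the log2 fold change was 1.41 (SE 1.54, edgeR adjusted p = 0.790). *Hspa13*, a microsomal HSP70, stayed low, with 0, 7 and 0 reads *in vivo* and 6, 13 and 35 *in vitro*.

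*Dnajc17*, a spliceosome-associated DnaJ gene whose locus is shared with 3 opposite-strand genes, had 524, 0 and 5271 reads *in vivo* and none in culture. Against a floor of 3 reads over the group, the pooled reads were 1759-fold lower *in vitro* (edgeR adjusted p = 0.359). That value covers counting error only and is not a lower bound, since 1 *in vivo* library was also at 0. *Dnajc27* had 486 reads in 1 cultured library and 0 in the other 5. *Hspa2*, the testis-enriched HSP70, had 115 reads in 1 *in vivo* library and 0 in the other 5. *Dnajc19*, a mitochondrial import factor, had 430 reads in 1 cultured library and at most 1 elsewhere at this stage. Each of these last 3 thus rested on 1 library. *Hspa1a* rested on *in vivo* replicate 2 in the same way: its log2 fold change was -11.78 (SE 4.49, edgeR adjusted p = 0.359), and 1.81 without that library.

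The abundant cytosolic genes overlapped between the primordial groups. The log2 fold change of *Hsp90ab1* in primordial follicle oocytes was 0.31 (SE 1.16, edgeR adjusted p = 1), with 2623, 1728 and 1639 TPM *in vivo* and 1876, 2990 and 2344 TPM *in vitro*. *Hsp90aa1* gave 1.20 (SE 1.50, edgeR adjusted p = 0.837), with 437, 535 and 84.4 TPM *in vivo* and 996, 935 and 185 TPM *in vitro*. *Hspa8* gave -0.48 (SE 1.13, edgeR adjusted p = 0.990), a value set by *in vitro* replicate 1, since it became 0.06 without it. With SEs above 1 on the log2 scale, a 2-fold difference of these genes was not detectable. Of the 62 genes 34 had positive values (beside 42.7% of all genes), with a median of 0.30 against 0 over all genes. The 8 listed ER chaperones had 5 positive and 3 negative values (median 0.73), and the 9 heat-inducible genes 4 positive and 3 negative (median 0). *Hspa1b* and *Hspb1* had no reads at this stage and entered that median as 0. Summed TPM of the heat-inducible list was 1447 to 2834 *in vivo* and 3375 to 4538 *in vitro*. The ER list summed to 908 to 1141 and 1147 to 2692 TPM in the same order. Sums of the HSP90 list and of the HSP70 and HSP110 list overlapped between the groups. The summed share of reads was 0.993% ± 0.125 (SD, n = 3) *in vivo* and 1.30% ± 0.220 (SD, n = 3) *in vitro*. These shares overlapped, with *in vivo* replicate 1 at 1.13% and *in vitro* replicate 3 at 1.05%. Among the heat-inducible genes, *Hspd1* was at 3175 TPM in *in vitro* replicate 1 and *Hspe1* at 1314 and 1401 TPM in the other *in vitro* libraries.

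In oocytes of primary follicles no chaperone gene passed the test between cultured and uncultured libraries, and the share with separate groups, 5 of 62, was no larger than over all genes (9.99%). EdgeR called 0 of 62 chaperone genes and 0.0% of all genes, and 10 of 62 had an unadjusted p under 0.05, 6 higher and 4 lower, beside 9.66% of all genes (6.94% higher and 2.72% lower). DESeq2 called 3, *Dnajc1*, *Dnajc16* and *Dnajc24*, beside 1.66% of all genes. Separate groups were seen for *Dnajc9*, *Dnajc16* and *Dnajc30*, higher *in vitro* beside 8.74% of all genes, and for *Dnajb6* and *Dnajc13*, lower *in vitro* beside 1.25%.

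*Dnajb6* was lower in all 3 cultured libraries. It held 889, 174 and 1310.4 TPM *in vivo* and 156, 3.45 and 117 TPM *in vitro*. Its log2 fold change was -3.57 (SE 1.61, edgeR adjusted p = 0.444). At the primordial stage the same gene held 1404, 153 and 82.5 TPM *in vivo* and 407, 83.0 and 94.9 TPM *in vitro*, with overlap. *Dnajb6* overlaps 3 genes on the opposite strand. *Dnajc16* had 0, 9 and 0 reads *in vivo* and 26, 3757 and 549 *in vitro*, a log2 fold change of 8.87 (SE 3.48, edgeR adjusted p = 0.440), although at the primordial stage *in vivo* replicate 2 had 1913 and *in vitro* replicates 1 and 2 had 9014 and 5709. *Dnajc24* had 0 reads in every *in vivo* library and 286, 0 and 512 *in vitro* (edgeR adjusted p = 0.440). Against a floor of 3 reads over the group, the pooled reads were 252-fold higher *in vitro*. That value covers counting error only and is not a lower bound, since a cultured library was also at 0. *Hspa8* gave a log2 fold change of -1.16 (SE 1.15, edgeR adjusted p = 0.860).

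Single libraries again carried most of the other small p-values at this stage. *Dnajb13*, a sperm flagellar DnaJ gene, had 2026 reads in *in vitro* replicate 3 and 0 in the other 5 primary libraries. *Hspa1b* was over the floor in 1 of the 6 primary libraries, as given above. The 4 genes lower *in vitro* at an unadjusted p under 0.05 were *Dnajb6*, *Hsf4*, *Hspb2* and *Hspb7*. Reads of *Hsf4*, *Hspb2* and *Hspb7* came from primary *in vivo* replicate 2 alone, the library with the highest stroma and theca sum. Of the 3 HSP90 genes, 0 had an unadjusted p under 0.05. Of the 62 genes 39 had positive values, beside 56.1% of all genes, with a median of 0.60 against 0.44 over all genes. The heat-inducible list summed to 2267 to 5529 TPM *in vivo* and 2839 to 5278 TPM *in vitro*. The ER list summed to 969 to 2510 and 1361 to 2601 TPM in the same order. Both sums overlapped between the primary groups, unlike at the primordial stage. The summed share of reads was 1.41% ± 0.384 (SD, n = 3) *in vivo* and 1.37% ± 0.101 (SD, n = 3) *in vitro*, with overlap. In primary *in vitro* libraries 48 to 56 of the 74 genes were detected, and 25 to 52 in primary *in vivo* libraries. The detected genes overall moved with this, at 8880 to 11710 *in vitro* and 4842 to 10283 *in vivo*, and their part in the result was not tested.

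Averaged over both LCM stages, culture gave no called chaperone gene by edgeR (0 of 62, beside 0.0% of all genes). At an unadjusted p under 0.05 there were 9, 6 higher and 3 lower, beside 11.6% of all genes (6.55% higher and 5.02% lower), and DESeq2 called 5, *Dnajc16*, *Dnajc17*, *Dnajc24*, *Dnajc27* and *Hspa2*, beside 3.77%. *Dnajc24* had the smallest p: its reads were 11, 22 and 0 in primordial *in vivo*, 0, 23 and 3160 in primordial *in vitro*, none in primary *in vivo* and 286, 0 and 512 in primary *in vitro* libraries. The log2 fold change was 8.74 (SE 3.01, edgeR adjusted p = 0.204). *Dnajc16* gave 6.22 (SE 2.19, edgeR adjusted p = 0.219) and *Hspa1a* -6.64 (SE 2.59, edgeR adjusted p = 0.264), the latter turning to 0.11 or 0.15 when either of the *in vivo* libraries that held it was left out. *Hsp90ab1* gave 0.08 (SE 0.82, edgeR adjusted p = 1) and *Hspa8* -0.82 (SE 0.81, edgeR adjusted p = 0.883).

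The test of whether culture acted differently at the 2 stages called 0 of 62 chaperone genes by edgeR, beside 0.104% of all genes, and 5 by DESeq2 (*Dnajc17*, *Dnajc24*, *Dnajc27*, *Hspa12a* and *Hspa2*), beside 3.62%. Unadjusted p-values under 0.05 were found for 4, all positive, which means more positive at the primary stage, beside 11.5% of all genes (8.55% positive and 2.98% negative). The smallest was that of *Hspa12a*, with a log2 difference of 16.29 (SE 5.31, edgeR adjusted p = 0.183). Its primary stage reads were 1, 7 and 1 *in vivo* and 268, 5 and 279 *in vitro*, so the cultured libraries were not lower there.

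Between the stages themselves, averaged over culture, edgeR called 0 of 62 chaperone genes, beside 0.0% of all genes, and DESeq2 called 8 (*Dnajb2*, *Dnajb9*, *Dnajc17*, *Dnajc19*, *Dnajc24*, *Dnajc27*, *Hspa2* and *Hspb11*), beside 4.34%. An unadjusted p under 0.05 was found for 7, 6 higher and 1 lower at the primary stage, beside 12.4% of all genes (9.02% higher and 3.35% lower). *Hspa2* led these with a log2 fold change of 9.86 (SE 2.81, edgeR adjusted p = 0.135). Its 6 primordial libraries held 115 reads in one and 0 in the others, and the primary libraries held 0, 2533 and 153 reads *in vivo* and 3104, 10215 and 0 *in vitro*. *Dnajb9*, an ER DnaJ gene of the unfolded protein response, was at 9 reads in 1 primordial library and 0 in the other 5, against 0, 25 and 29 in primary *in vivo* and 2590, 0 and 1415 in primary *in vitro* libraries. *Hspb11*, which encodes a ciliary transport protein in spite of its name, had 1030 reads in 1 primary *in vivo* and 1275 and 605 reads in 2 primary *in vitro* libraries.

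Partners of these chaperones were read from a list of 47 co-chaperones, ER folding enzymes and stress regulators outside the family. In MII oocytes 43 were tested, 10 had an unadjusted p under 0.05 (4 higher and 6 lower *in vitro*), beside the 10.2% of all genes given above, and 1 was called. That gene was *Pdia6*, an ER disulfide isomerase that works with BiP, which had 3911, 3226 and 3330 reads *in vivo* and 1046, 1315 and 1014 *in vitro*. The groups did not overlap, and the log2 fold change was -1.74 (SE 0.31, edgeR adjusted p = 0.0304, range over the alternatives 4.46e-06 to 0.285). At the primordial stage the direction was the other way, with 230, 328 and 13 *Pdia6* reads *in vivo* and 1526, 4048 and 1109 *in vitro*, groups that did not overlap and a difference that was not called. In the LCM comparisons 0 of the 47 partners were called by edgeR, with 1 at an unadjusted p under 0.05 at the primordial stage, 4 at the primary stage and 3 averaged over stages, beside 11.7%, 9.66% and 11.6% of all genes. DESeq2 called 2, 1 and 2 of them, beside 5.3%, 1.66% and 3.77% of all genes.

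Of the partners named for their place in stress responses, *Bag3*, an inducible HSP70 exchange factor, held 966 TPM in primordial *in vivo* replicate 2, 8.46 and 0.106 TPM in the other 2 libraries of that group, and 39.4 to 289 TPM in primordial *in vitro* libraries. Its primary stage values were 0.0561, 26.3 and 0.0762 TPM *in vivo* and 239, 1.29 and 309 TPM *in vitro*, with overlap. The log2 fold change of *Bag3* at that stage was 4.08 (SE 2.63, edgeR adjusted p = 0.608). It was listed at 0 in all 6 MII libraries. *Stip1*, which links HSP70 to HSP90, held 93.4, 65.6 and 74.5 TPM in MII *in vivo* and 119, 227 and 103 TPM in MII *in vitro* libraries, without overlap (edgeR adjusted p = 0.430). At the primordial stage *Stip1* held 2.95, 37.1 and 0.0624 TPM *in vivo* and 111, 796 and 105 TPM *in vitro*, also without overlap. The log2 fold change there was 4.92 (SE 2.87, edgeR adjusted p = 0.461), and -0.02 (SE 2.43) at the primary stage. *Hyou1*, an ER HSP110, held 6.42 to 12.1 TPM in MII *in vivo* and 3.76 to 7.78 TPM in MII *in vitro* libraries, with overlap. *Ddit3*, encoding the ER stress factor CHOP, had no reads at the primordial stage in either group, and 1.38 to 14.1 TPM over the MII libraries. At the primary stage it had 302, 0 and 112 reads *in vivo* and 24, 261 and 270 *in vitro*.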

How the data were processed

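The processed counts and length-scaled TPM values of 18 mouse libraries were analysed. According to the study's methods and the submitters' processing notes, the authors trimmed reads with Trim Galore 0.4.1, mapped them to mm10 with TopHat2 and deposited raw counts per Ensembl gene from featureCounts; handling of strand and of reads with several matches is not given in the sources used here. The deposited TPM values were scaled by the authors over 28252 genes and were used for levels.

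Comparisons used edgeR 4.0.16 (quasi-likelihood, robust, TMM, R 4.3.3) on counts of genes with at least 10 reads in total, with Benjamini-Hochberg adjustment over all genes tested. The 12 LCM libraries were fitted together (15317 genes, 62 of the 74) and the 6 MII libraries separately (17144 genes, 64 of the 74), because their kits differed. Calls needed an adjusted p under 0.05 and a fold of 2. Each SE given with an edgeR fold change is the absolute log2 fold change divided by the square root of the quasi-likelihood F statistic. It is thus an approximation and not an error taken from the fit. Normalised values are TMM-scaled CPM, and groups were compared for overlap on them. DESeq2 1.42.0, limma 3.58.1 on log2(TPM + 1) and log2(TPM + 0.1), other filters and scalings, a replicate block and leaving out each library were alternatives. The edgeR script was tested on simulated data. Their spread was set lower than that fitted in the LCM libraries, so this check does not cover the LCM comparisons.

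Genes were named if called, among the 5 smallest p-values of a comparison, among the 10 highest mean TPM in LCM or MII libraries, or on role lists of HSP90, HSP70 and HSP110, chaperonin, small heat shock, heat-inducible, ER chaperone and heat shock factor genes; other genes named were chosen after their values were seen. The genes, lists and partners were chosen with earlier results of these data known. Where a partner symbol had 2 rows, the row with more reads was used. Replicate numbers did not pair the libraries. A floor of 3 reads corresponds to 0.103 to 0.198 CPM in LCM and 0.301 to 0.409 in MII libraries. Promoter sequences are from RefSeq (GRCm38.p6). Gene positions are from the GENCODE annotation of the same assembly.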

Additional observations from a re-analysis of the deposited data

How the results depend on the processing

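The log2 fold changes given above, apart from those of *Bag3* and *Stip1*, were fitted again under the alternatives. Of these values, 405 kept their direction and side of the threshold, 9 passed it newly, 6 no longer passed it and 8 changed sign. Of the counts of calls, 154 stayed within 1.5 times and 66 did not. DESeq2 called 812 genes and 5 chaperone genes at the primordial stage, 254 and 3 at the primary stage, 578 and 5 for pooled culture, 554 and 5 for culture by stage, 664 and 8 between stages and 351 and 2 in MII oocytes. With at least 1 count as the filter, edgeR called 0 genes at the primordial stage, 1 for culture by stage and 263 in MII oocytes, and with at least 10 counts in 3 libraries 0, 0 and, for pooled culture, 1. Both limma fits called 0 genes at the primordial stage and 0 for culture by stage. Library size alone gave 2 genes between stages, and median-of-ratios scaling 24 there, 17 for pooled culture and 1 at the primary stage. Fits of the 2 groups alone called 9 genes at the primordial and 5 at the primary stage. The causes were not tested. *Hsp90ab1* in pooled culture turned to -0.16 under DESeq2 and under median-of-ratios scaling. The median log2 fold change of all genes shifted with scaling, for culture by stage from 0.91 to 1.28 with library size and 0.61 with median-of-ratios factors. With a floor of 10 reads, 53.7 and 54.0 chaperone genes per library were detected in MII *in vivo* and *in vitro* oocytes.

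Leaving out 1 library at a time, edgeR called 0 to 3 genes at the primordial stage, 0 to 1 at the primary stage, 0 to 15 for pooled culture, 0 to 20 for culture by stage, 0 to 19 between stages and 11 to 378 in MII oocytes. The MII counts were 378 without *in vivo* replicate 1, 19 without *in vivo* replicate 3 and 12, 14 and 11 without *in vitro* replicates 1, 2 and 3. Chaperone genes called were 0 to 1 in MII oocytes and 0 in the other comparisons. Log2 fold changes ranged from -0.0084 to 0.18 for *Hsp90ab1* in pooled culture, from -0.89 to 0.056 for *Hspa8* and from -13.59 to 1.81 for *Hspa1a* at the primordial stage, and from -10.80 to 0.15 for *Hspa1a* in pooled culture. *Pdia6* in MII oocytes was not called by limma (adjusted p = 0.0603 and 0.0623), nor without *in vivo* replicate 3 or any *in vitro* replicate (edgeR adjusted p from 0.141 to 0.285).

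Same-numbered libraries did not deviate together (correlations of -0.0243 to 0.0691). With the replicate block edgeR called 1 gene at the primordial stage and 0 for culture by stage, and 0 chaperone genes in any comparison.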
